A study of Nothobranchius furzeri with 12 samples.

Results

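The genes described here are 10 genes of melanin synthesis and of the melanosome, taken by name: tyr, tyrp1b, dct, pmela, pmelb, oca2, slc24a5, slc45a2, mlana and gpr143. They are 10 of the 25122 genes counted in retina with attached retinal pigment epithelium (RPE) of turquoise killifish, a fish with a very short life. Of the 10, 7 stood in the count table under their own symbol and 3 under a locus number (tyrp1b as LOC107382179, pmela as LOC107385660 and pmelb as LOC107390367). All 10 passed the filter on low counts and were among the 20717 genes tested. The 10 were chosen with earlier results of these data known, so counts of calls among them are a description.

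Melanin is made from tyrosine inside melanosomes, which are membrane organelles related to lysosomes. Enzymes of the tyrosinase family carry out the synthesis, Pmel protein forms the fibrils on which the pigment is laid down, and transporters in the melanosome membrane set the ions and pH that tyrosinase needs. In the eye the RPE holds melanosomes that absorb stray light behind the photoreceptors, while the choroid and iris hold melanophores that come from the neural crest.

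The tissue came from 12 male fish, in 4 age groups of 3 fish (1.5 months, then 3.0, then 4.5 and last 6.0), none of them treated. Every fish carried the label of a mutant line backcrossed to the GRZ strain, and neither the mutated gene nor the carrier state of any fish is given in the sources used here. Cornea, lens, iris, sclera and choroid had been removed and the RPE kept, and each library came from 1 fish. Library names of 4.5 months replicates 2 and 3 carry the word "Resub", which is not explained in the sources used here.

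Libraries held 34.44 to 50.27 M counts. Summed photoreceptor markers reached 10151 to 22522 CPM (read counts scaled to the size of the library) over the 12 libraries, and the summed RPE markers, 8 entries including rpe65 and rgr, reached 3359 to 11513 CPM, so both labelled tissues were present. Photoreceptor markers summed to 10151 to 15275 CPM in the 3 fish at 6.0 months, below all 9 younger fish at 16960 to 22522 CPM, and 1 of 11 entries was called lower between 6.0 and 1.5 months in edgeR. The estimate was below 0 for 10 of the 11, 9 were lower at an unadjusted p under 0.05 in edgeR, and DESeq2 called 6 lower. Myelin markers summed to 44 to 115 CPM at 6.0 months and 193 to 645 CPM at 1.5 months, with 2 of 5 entries (mpz and plp1b) called lower in edgeR and 4 in DESeq2. Of all 20717 genes tested, edgeR called 212 lower, 1937 were lower at an unadjusted p under 0.05, and DESeq2 called 816 lower. Markers of tissue that should have been removed stood apart in a few libraries. Summed lens markers were at 6414 CPM in 6.0 months replicate 1, 1324 CPM in 4.5 months replicate 1 and 442 CPM in 1.5 months replicate 2. In 1.5 months replicate 1, surface epithelium markers summed to 4972 CPM and mural cell and fibroblast markers to 6252 CPM. The part of all these in the results was not tested beyond the fits without single libraries given beside the results.

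Between 6.0 and 1.5 months, tyrp1b was the member that fell, about 10.6-fold, and its level at 3.0 months already lay below every library of 1.5 months. The chloride channel gene oca2 was lower in all 3 fish at 6.0 months but missed the threshold, and mlana was the single member with a higher estimate. The matrix genes pmela and pmelb, the enzyme gene dct and the calcium exchanger gene slc24a5 overlapped between the fish of 6.0 and of 1.5 months. Of the 10 members, 1 passed a Benjamini-Hochberg adjusted p under 0.05 in edgeR's quasi-likelihood test, and it was lower. Over all tested genes, 1.02% passed in that direction. The log2 change was below 0 for 9 of the 10 members and for 50.6% of all genes, with a median of -0.67 over the members and -0.005 over all genes. The 3 fish of 6.0 months lay below all 3 of 1.5 months for 4 members (tyr, tyrp1b, oca2 and slc45a2), a pattern shown by 14.7% of all genes. No member had its 6.0-month fish all above those of 1.5 months, against 15.9% of all genes. The members varied together from fish to fish (median Pearson r of 0.902 over their 45 pairs), so they are not independent. No enrichment is read from these counts.

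**Figure D1:**
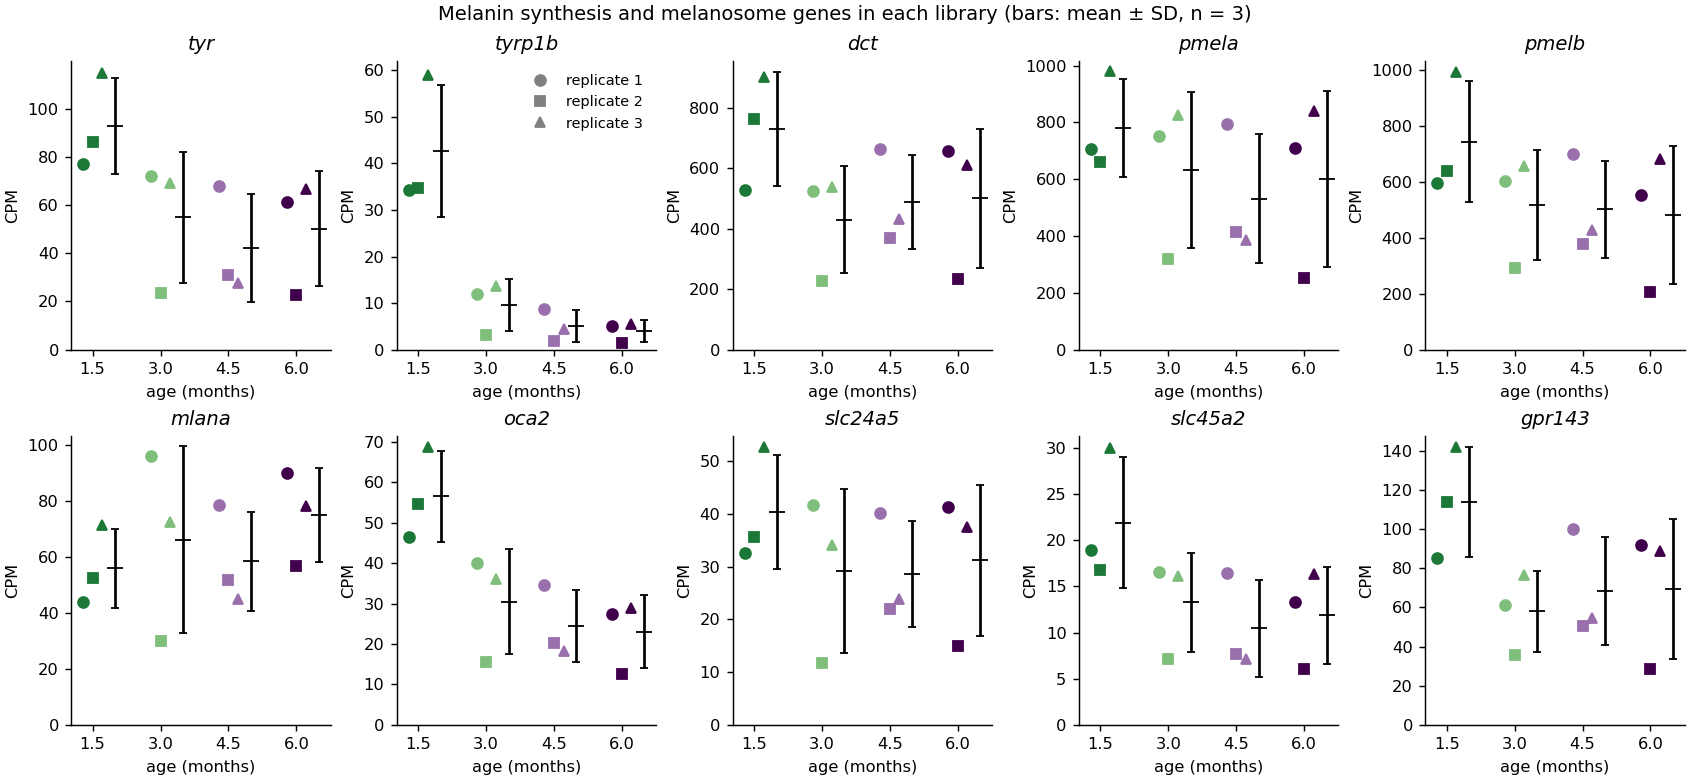
CPM of each of the 10 members (vertical axes, linear, from 0) by age in months, with 1 point per library, the symbol giving the replicate number, and mean ± SD beside the points (n = 3 per age). All 9 fish older than 1.5 months had tyrp1b below the lowest 1.5-month library at 34.2 CPM, while mlana averaged 74.9 CPM at 6.0 months and 55.8 CPM at 1.5 months with overlapping fish.

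Among the enzymes, tyrp1b encodes a melanosome membrane protein of the tyrosinase family, which in mouse acts late in the synthesis of brown and black melanin and stabilises tyrosinase. Its levels in replicates 1, 2 and 3 were 34.2, 34.7 and 59.1 CPM at 1.5 months, 12.1, 3.17 and 13.6 CPM at 3.0 months, 8.65, 1.95 and 4.51 CPM at 4.5 months, and 5.11, 1.40 and 5.55 CPM at 6.0 months. The 1.5-month fish were above all 9 older fish, and the other ages overlapped. These levels rested on 211, 74 and 275 counts at 6.0 months, against 1400, 1554 and 2793 counts at 1.5 months. Mean levels were 4.02 ± 2.28 CPM at 6.0 months and 42.7 ± 14.2 CPM at 1.5 months (SD, n = 3 each). The log2 change was -3.41 ± 0.72 (SE), with an edgeR adjusted p of 0.0387.

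The fall of tyrp1b was also called as a slope over the 4 ages, at -0.76 ± 0.14 log2 units per month (SE, edgeR adjusted p = 0.0327), and when all 4 ages were compared at once (edgeR adjusted p = 0.0489). It was the 1 member called in each, against 0.449% of all genes for a falling slope and 2.21% for any difference. In the single steps no member passed in edgeR. Those counts of 0 stood beside 0.0193% of all genes for 3.0 over 1.5 months, 0.319% for 4.5 over 3.0 months and 0.599% for 6.0 over 4.5 months. At an unadjusted p under 0.05, edgeR gave 2, 0 and 0 members in these steps (12.6%, 14.7% and 16.6% of all genes in edgeR). DESeq2 gave 4, 0 and 0 unadjusted and 0 adjusted in each. No share of all genes in DESeq2 is given for these steps, so its counts are a description only. The estimates for tyrp1b were -2.15 ± 0.68 for the first step (edgeR adjusted p = 0.252), -0.93 ± 0.67 for the second (0.575) and -0.33 ± 0.68 for the third (0.869).

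These calls for tyrp1b lay close to the threshold. Leaving out 1 library at a time kept the change at 6.0 over 1.5 months between -3.723 and -3.003, but the edgeR call held in 3 of 12 such fits. It was lost without 1.5 months replicate 1 (adjusted p = 0.0924), 2 (0.0754) or 3 (0.124), 3.0 months replicate 1 (0.0584) or 3 (0.0562), 4.5 months replicate 3 (0.0621), or 6.0 months replicate 1 (0.0999), 2 (0.1) or 3 (0.0772). The slope kept its edgeR call in 6 of 12 fits, and lost it without any 1.5-month library (0.0736, 0.0848 and 0.103 for replicates 1 to 3), 3.0 months replicate 3 (0.0536), or 6.0 months replicate 1 (0.0688) or 2 (0.102). The test of any difference kept its call in 2 of 12 fits, without 3.0 months replicate 2 and without 4.5 months replicate 1, with adjusted p from 0.022 to 0.145 over the 12.

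Tyrosinase itself, encoded by tyr, carries out the first and limiting step of melanin synthesis. Its levels were 77.0, 86.3 and 115 CPM at 1.5 months, 72.0, 23.7 and 69.3 CPM at 3.0 months, 67.9, 30.8 and 27.8 CPM at 4.5 months, and 61.3, 22.9 and 66.6 CPM at 6.0 months. All older fish were below the 1.5-month fish, and replicate 2 was far below the other fish at 3.0 and at 6.0 months. Means were 50.3 ± 23.9 CPM at 6.0 months and 92.8 ± 19.9 CPM at 1.5 months (SD, n = 3 each), a log2 change of -0.89 ± 0.51 that did not pass (edgeR adjusted p = 0.359).

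The gene dct encodes dopachrome tautomerase, the enzyme between tyrosinase and the last steps of the path. It was measured at 529, 764 and 901 CPM at 1.5 months, 526, 226 and 539 CPM at 3.0 months, 664, 371 and 431 CPM at 4.5 months, and 656, 235 and 609 CPM at 6.0 months. The oldest and youngest fish overlapped, and the lowest library at 3.0 and at 6.0 months was again replicate 2. The log2 change of -0.55 ± 0.42 did not pass (edgeR adjusted p = 0.495). Gene lengths are not given in the sources used here, so levels are compared between ages and not between genes.

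Of the melanosome matrix genes, pmela and pmelb are 2 copies of the gene for Pmel, whose cut fragments build the fibrils. How reads shared between the copies were counted is not given in the sources used here, so their separate values are uncertain. Levels of pmela ran from 252 to 840 CPM at 6.0 months and from 660 to 980 CPM at 1.5 months, and those of pmelb from 207 to 684 CPM and from 598 to 994 CPM at the same ages. Both overlapped between the ages, with log2 changes of -0.38 ± 0.47 for pmela (edgeR adjusted p = 0.686) and -0.63 ± 0.44 for pmelb (0.445).

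The gene mlana encodes a small melanosome membrane protein that binds Pmel and takes part in its processing in human cells. Its levels were 43.8, 52.5 and 71.2 CPM at 1.5 months, 96.0, 30.04 and 72.4 CPM at 3.0 months, 78.4, 51.7 and 44.8 CPM at 4.5 months, and 89.8, 56.7 and 78.2 CPM at 6.0 months. All 4 ages overlapped, and the lowest 6.0-month fish was above 2 of the 3 fish at 1.5 months. The log2 change was 0.42 ± 0.37 (edgeR adjusted p = 0.556).

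Of the membrane transporters, oca2 encodes a melanosome channel that raises melanosome pH, and its loss causes albinism. It was measured at 46.4, 54.5 and 68.6 CPM at 1.5 months, 39.9, 15.6 and 35.9 CPM at 3.0 months, 34.6, 20.2 and 18.2 CPM at 4.5 months, and 27.5, 12.6 and 29.0 CPM at 6.0 months. The 1.5-month fish lay above all 9 older fish, and the means of 56.5, 30.5, 24.3 and 23.0 CPM were in the order of age. The log2 change from edgeR was -1.30 ± 0.40 between 6.0 and 1.5 months, with an unadjusted p of 0.00803 and an adjusted p of 0.107. The slope was -0.28 ± 0.08 log2 units per month (edgeR adjusted p = 0.0995). DESeq2, run as an alternative, gave adjusted p of 0.0116 for the change and 0.0163 for the slope, both past the threshold.

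The potassium-dependent sodium and calcium exchanger gene slc24a5, known from the golden zebrafish mutant, averaged 31.2 ± 14.3 CPM at 6.0 months and 40.3 ± 10.8 CPM at 1.5 months (SD, n = 3 each). Its fish overlapped, and the log2 change of -0.37 ± 0.48 did not pass (edgeR adjusted p = 0.698). The transporter gene slc45a2, known from the albino zebrafish mutant, was at 13.3, 6.02 and 16.3 CPM at 6.0 months and at 18.9, 16.8 and 30.1 CPM at 1.5 months. The groups did not overlap, by a gap of 16.3 to 16.8 CPM, and the log2 change was -0.89 ± 0.46 (edgeR adjusted p = 0.302). The receptor gene gpr143 encodes a G protein-coupled receptor of the melanosome membrane that controls melanosome size in mouse. It averaged 69.6 ± 35.8 CPM at 6.0 months and 114 ± 28.1 CPM at 1.5 months (SD, n = 3 each), with overlapping fish and a log2 change of -0.71 ± 0.44 (edgeR adjusted p = 0.397).

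The members varied together from fish to fish, and they did so with the summed RPE markers of the library. The largest parts of this sum were rpe65 and rgr, at means of 2930 and 2110 CPM at 6.0 months. Summed RPE markers were at 6734, 7792 and 11513 CPM at 1.5 months, 6357, 3359 and 7316 CPM at 3.0 months, 10399, 4797 and 4715 CPM at 4.5 months, and 7697, 3906 and 7471 CPM at 6.0 months. The libraries low in RPE markers were those low in most members, replicate 2 at 3.0 and 6.0 months and replicates 2 and 3 at 4.5 months. The sum averaged 6358 ± 2127 CPM at 6.0 months and 8680 ± 2510 CPM at 1.5 months (SD, n = 3 each), a log2 difference of -0.48 with an exact two-sided permutation p of 0.4, where 3 against 3 allows no p under 0.1. None of the 8 RPE markers passed between these ages in edgeR, 0 had an unadjusted p under 0.05, and DESeq2 called 0. For rpe65, the isomerase of the visual cycle, the log2 change was -0.58 (edgeR adjusted p = 0.434). The estimate was below 0 for 6 of the 8 markers and above 0 for 2, with a median of -0.256. It was -0.57 for rdh5, -0.48 for ttr, -0.45 for rgr, -0.06 for rgra and -0.05 for best1. The 2 above 0 were stra6 at 0.12 and mertka at 0.10. In bulk tissue, fewer cells of a type and less RNA per cell cannot be told apart.

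Over the 12 libraries the log2 CPM of a member and of the RPE sum correlated at Pearson r of 0.947 for dct, 0.942 for gpr143, 0.935 for slc24a5, 0.923 for pmelb, 0.916 for tyr, 0.915 for pmela, 0.906 for slc45a2, 0.850 for oca2, 0.732 for tyrp1b and 0.660 for mlana. As deviations from the age means, the same correlations lay between 0.881 for mlana and 0.966 for tyr and slc45a2, with 0.925 for tyrp1b and 0.955 for oca2. So at a given age tyrp1b, oca2 and mlana followed the RPE sum closely, and it was across ages that they parted from it. These correlations are a description, since member and marker come from the same library and share its dissection and depth.

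**Figure D2:**
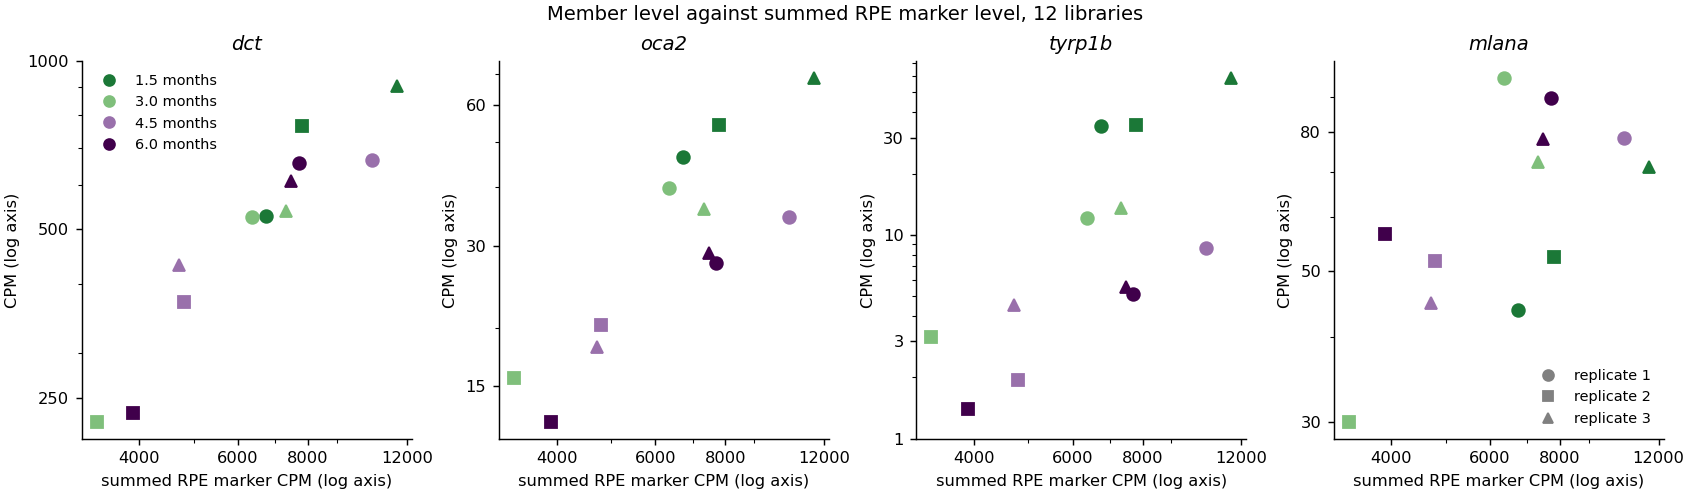
CPM of dct, oca2, tyrp1b and mlana (vertical, log scale) against summed RPE marker CPM (horizontal, log scale) in the 12 libraries, coloured by age, the symbol giving the replicate number. The dct points lie along 1 line over all ages (r = 0.947), while the 1.5-month points lie above those of older fish for tyrp1b and below most of them for mlana.

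Among the members themselves, all 45 pairs had a positive Pearson r over the 12 libraries, from 0.187 to 0.984 with a median of 0.902, and 39 passed a permutation test adjusted over the 45 pairs. The permutations shuffled all 12 libraries without regard to age. Both genes of a pair also share the dissection and depth of each library. The count of 39 is therefore a description, and no share of other gene pairs is given beside it. As deviations from the age means the 45 values lay between 0.770 and 0.996. The 28 pairs without tyrp1b and mlana had r from 0.851 to 0.984. The closest pair over all libraries was tyr with slc45a2 (r = 0.984), and tyr and oca2 ranked the libraries identically (rho = 1, permutation p = 1e-05, the smallest that 100000 resamples can give; r = 0.966, and 0.940 without the 2 libraries farthest from the median). The pair tyrp1b and oca2 correlated at r = 0.953 (permutation p = 2e-05, adjusted 7.5e-05) and rho = 0.972 (permutation p = 2e-05), with r = 0.916 without the 2 farthest libraries and 0.919 within ages. For tyrp1b and mlana, r was 0.187 (permutation p = 0.562) and rho 0.196 (permutation p = 0.544), while within ages r was 0.823. The pairs of mlana had a median r of 0.543, and 3 of 9 passed.

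Set against the RPE marker sum of the same library, tyrp1b and oca2 were lower and mlana higher in the 3 oldest fish, while dct, pmela and slc24a5 overlapped between these fish. The level of tyrp1b was 0.0664%, 0.0360% and 0.0743% of the RPE sum at 6.0 months, against 0.508%, 0.446% and 0.513% at 1.5 months. The fish of the 2 ages lay far apart, a log2 difference of -3.12, although the shares at 6.0 months still spread from 0.0360% to 0.0743%. For oca2 the shares were 0.358%, 0.322% and 0.388% at 6.0 months, against 0.690%, 0.700% and 0.596% at 1.5 months, a log2 difference of -0.90. For mlana they were 1.17%, 1.45% and 1.05% at 6.0 months, against 0.650%, 0.673% and 0.619% at 1.5 months, a log2 difference of 0.90 with no overlap.

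The 4 members whose shares were lower at 6.0 months without overlap were tyrp1b, oca2, tyr and gpr143. Of all tested genes, 0.932% had such a lower share. For gpr143 the gap was narrow, from 1.19% as its highest share at 6.0 months to 1.23% as its lowest at 1.5 months, and its CPM overlapped. A higher share without overlap was shown by mlana alone among the members, and by 19.7% of all genes. These percentages of all genes are no like base for the members. The RPE sum averaged lower at 6.0 months (log2 difference -0.48, exact permutation p = 0.4), with overlapping fish. Dividing by a lower sum raises the share of a gene that does not follow it. The part of this in the percentages was not tested. In CPM, 14.7% of all genes were lower without overlap. The members did follow the sum, so no enrichment is read from these counts. Each of these 5 members had an exact two-sided permutation p of 0.1, the smallest this design allows, and 0.2 when adjusted over the 10 members. The shares of dct were 7.56 ± 1.36% at 6.0 months and 8.49 ± 1.13% at 1.5 months, and those of slc24a5 0.473 ± 0.0816% and 0.467 ± 0.0146% (SD, n = 3 each), both overlapping.

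By age, the mean share of tyrp1b was 0.489 ± 0.0374% at 1.5 months, 0.157 ± 0.0540% at 3.0 months, 0.0732 ± 0.0289% at 4.5 months and 0.0589 ± 0.0203% at 6.0 months (SD, n = 3 each). The fish of 3.0 and 4.5 months overlapped, as did those of 4.5 and 6.0 months. For oca2 the means were 0.662%, 0.528%, 0.380% and 0.356% at the same 4 ages, and for tyr 1.08%, 0.928%, 0.628% and 0.758%. The means of mlana were 0.647%, 1.13%, 0.928% and 1.22%, with all 9 older fish above the 3 youngest.

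**Figure D3:**
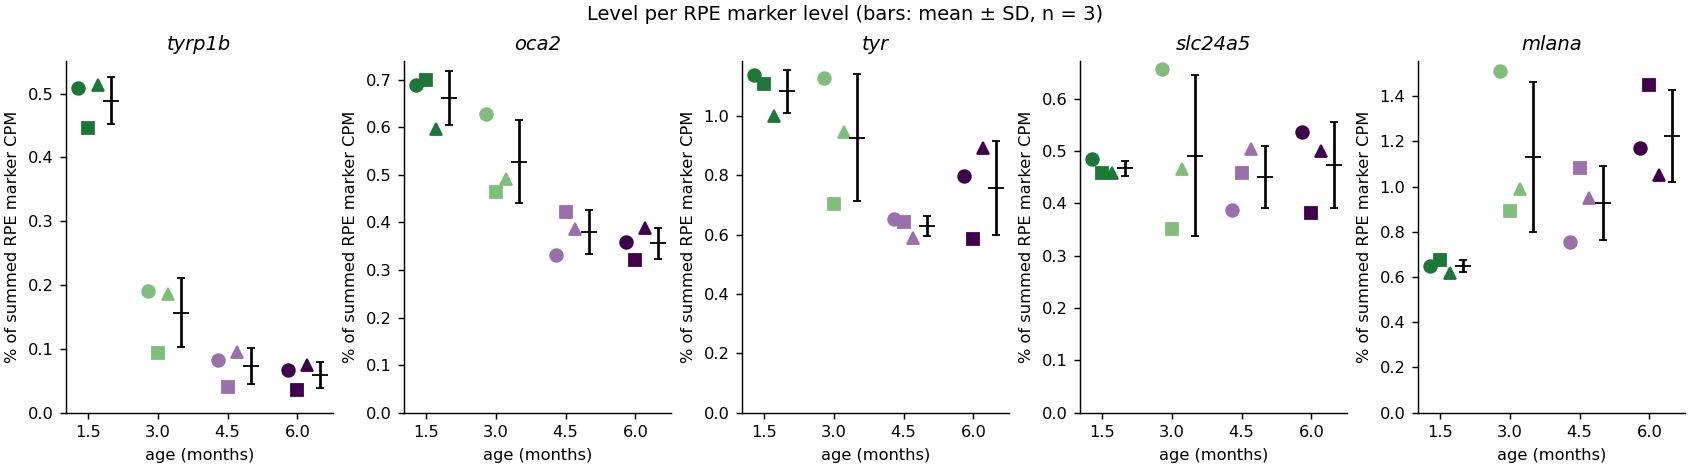
Levels of tyrp1b, oca2, tyr, slc24a5 and mlana in percent of the summed RPE marker CPM of the same library (vertical axes, from 0) by age in months, with 1 point per library, the symbol giving the replicate number, and mean ± SD beside them (n = 3 per age). Shares of tyrp1b averaged 0.0589% at 6.0 months and 0.489% at 1.5 months, shares of mlana 1.22% and 0.647%, and slc24a5 stayed near 0.47% at both.

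A fit with the log2 RPE marker sum as a further term was added after the data had been seen. In this fit 3 of the 10 members passed between 6.0 and 1.5 months in edgeR, against 5.14% of all genes. The log2 change was -2.82 ± 0.31 for tyrp1b (edgeR adjusted p = 0.00331), -0.90 ± 0.15 for oca2 (0.00881) and 0.84 ± 0.21 for mlana (0.0444). The values of tyr at -0.41 ± 0.15 (0.135), slc45a2 at -0.42 ± 0.15 (0.131), gpr143 at -0.32 ± 0.17 (0.284) and dct at -0.15 ± 0.18 (0.646) did not pass. Slopes per month were -0.63 ± 0.07 for tyrp1b (edgeR adjusted p = 0.00423) and -0.21 ± 0.03 for oca2 (0.0128), the 2 members called against 1.60% of all genes. For any difference among the ages, 4 members passed against 8.93% of all genes: tyr (edgeR adjusted p = 0.0382), tyrp1b (0.00329), oca2 (0.0109) and slc45a2 (0.0433). The members followed the RPE sum within ages. With the RPE term the SE at 6.0 over 1.5 months fell from 0.72 to 0.31 for tyrp1b and from 0.40 to 0.15 for oca2. The percentages of all genes are thus no like base for the members here either, and no enrichment is read from these counts.

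With the RPE term, tyrp1b and oca2 kept their calls for the change and the slope in all 12 fits that left out 1 library. The largest edgeR adjusted p were 0.0248 and 0.0197 for tyrp1b and 0.0466 and 0.0454 for oca2. The call of mlana held in 3 of these 12 fits, without 3.0 months replicate 1 (0.0146) or 2 (0.0243) or 4.5 months replicate 1 (0.0339), and in the other 9 its adjusted p lay between 0.0576 and 0.139 with log2 changes of 0.72 to 0.94 over the 12.

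**Figure D4:**
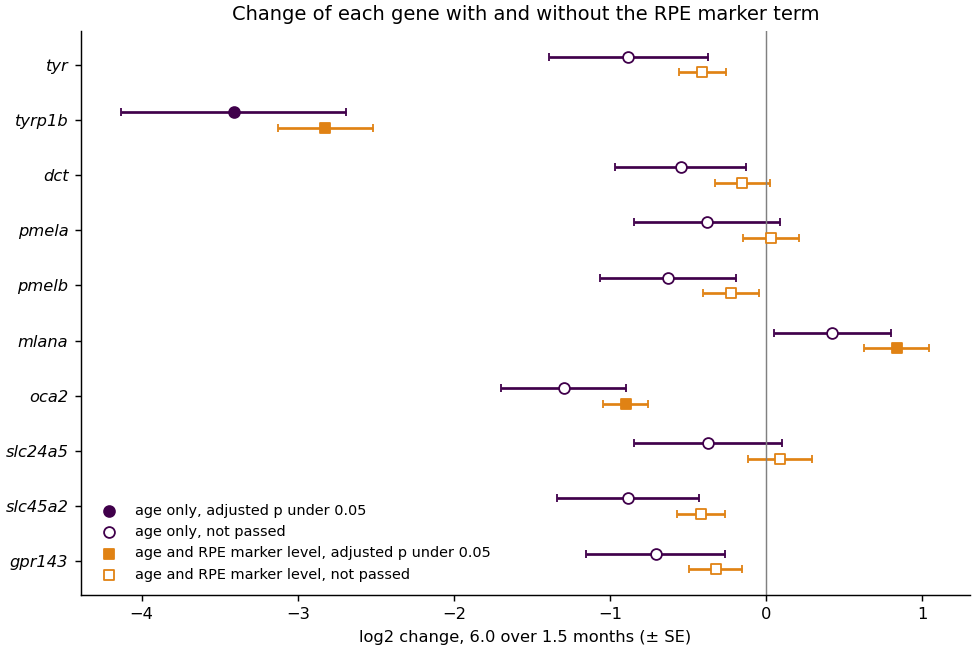
Log2 change of each member at 6.0 over 1.5 months with its SE, from the fit by age alone and from the fit with the RPE marker sum as a further term. The estimate for tyrp1b is -3.41 by age alone and -2.82 with the RPE term, and mlana is the member on the positive side in both, at 0.42 and 0.84.

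Other pigment cells were read through lists of markers. Summed neural crest melanophore markers (6 tested entries, among them sox10, mitfa and mc1r) were at 99 to 119 CPM at 6.0 months and 110 to 128 CPM at 1.5 months. Most of this sum came from the 2 sox10 entries and kit, at means of 21.4, 55.7 and 23.7 CPM at 6.0 months. Means of mitfa, mc1r and erbb3b were 2.39, 1.73 and 3.05 CPM, so the sum says little about these genes. Iridophore markers summed to 83, 264 and 43 CPM at 6.0 months and 36 to 53 CPM at 1.5 months, and 0 of 5 entries passed in edgeR, with 2 higher at an unadjusted p under 0.05 and 2 higher in DESeq2. Of the sums at 6.0 months, gpnmb, which macrophages also express, made up 48.4, 242 and 11.6 CPM. The iridophore enzyme gene pnp4a averaged 16.3 CPM at 6.0 months and 25.5 CPM at 1.5 months (log2 change -0.64), and ltk, an iridophore receptor gene, 9.79 and 9.10 CPM (0.11), with overlapping fish. In the same list tfec changed by 1.29 with no overlap (edgeR adjusted p = 0.0714). For alx4a, at 0.574 and 0.299 CPM, the change was 0.93 with overlapping fish. The estimate was above 0 for 4 of the 5 iridophore entries, with a median of 0.93. Xanthophore markers summed to 24 to 31 CPM at 6.0 months and 14 to 15 CPM at 1.5 months. The 1 of 4 entries called in edgeR was csf1ra, also a macrophage gene, at 9.96 CPM at 6.0 months and 2.63 CPM at 1.5 months (log2 change 1.92, adjusted p = 0.0291). The other 3 did not pass. Of these, xdh was at 1.52 with no overlap (edgeR adjusted p = 0.134), gch2 at 0.60 and scarb1 at -0.07, the latter 2 with overlapping fish. Of the 4 entries, 2 were higher at an unadjusted p under 0.05 in edgeR and 2 higher in DESeq2. Some markers of these lists are also expressed in RPE or glia. The genes kita and tyrp1a had no matched entry. The part of melanophores in the levels of the members was not tested.

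The wider pigment path was read from 3 lists of 100 genes in all, of which 66 entries were tested. Of these, 5 were higher and 0 lower at 6.0 than at 1.5 months in edgeR, which is 7.58% against 2.78% of all genes in either direction and 1.75% higher. At an unadjusted p under 0.05, passed by 20.4% of all genes, edgeR gave 10 higher and 4 lower, and DESeq2 gave 7 higher and 1 lower with adjustment. The median log2 change over the 66 entries was 0.06, against -0.005 over all genes. Most of the genes that rose are expressed in many cell types, where they serve lysosomes and related organelles.

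In the list of melanosome biogenesis and movement, 4 of 41 entries rose. Of these, hps3 and hps5 encode subunits of the BLOC-2 complex and hps4 a subunit of BLOC-3, which direct cargo to melanosomes, and myo7a encodes a myosin that moves melanosomes in mouse RPE. For hps4 the levels were 17.1, 16.8 and 13.5 CPM at 6.0 months, against 8.18, 8.34 and 9.56 CPM at 1.5 months, with no overlap. Its log2 change was 0.86 ± 0.14 (edgeR adjusted p = 0.0187), and it was the 1 entry of the 66 whose slope passed (0.17 ± 0.03 per month, edgeR adjusted p = 0.0327), which is 1.52% against 1.17% of all genes. Levels of hps3 were 12.5, 12.0 and 13.0 CPM at 6.0 months, against 7.08, 5.50 and 6.09 CPM at 1.5 months (log2 change 1.00 ± 0.22, edgeR adjusted p = 0.0362).

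For hps5 the levels were 47.0, 51.6 and 48.7 CPM at 6.0 months, against 31.9, 35.5 and 29.7 CPM at 1.5 months (log2 change 0.60 ± 0.12, edgeR adjusted p = 0.029). For myo7a they were 14.3, 13.9 and 11.6 CPM at 6.0 months, against 7.79, 7.60 and 7.17 CPM at 1.5 months (0.82 ± 0.20, 0.0496). In the list of other melanosome enzymes, channels and transporters, 1 of 13 entries rose: mfsd12, which encodes a transporter of melanosomes and lysosomes, at 8.84, 10.5 and 7.69 CPM at 6.0 months, against 4.27, 4.67 and 5.16 CPM at 1.5 months (0.94 ± 0.20, edgeR adjusted p = 0.0352). All 5 of these genes had their 6.0-month fish above the 1.5-month fish, as had 15.9% of all genes. The 5 were named because they were called higher, which favours that pattern. None of the 5 was called without any single 1.5-month library or without 6.0 months replicate 1 or 2, and hps4 alone was called without 6.0 months replicate 3. The call of myo7a was also lost without 3.0 months replicate 1, that of mfsd12 without 3.0 months replicate 3, those of hps3, mfsd12 and myo7a without 4.5 months replicate 2, and those of hps3 and myo7a without 4.5 months replicate 3.

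In the list of pigment cell transcription factors and signalling, 0 of 12 entries passed in edgeR, with 2 higher and 1 lower at an unadjusted p under 0.05, and 1 higher and 1 lower in DESeq2. For mitfa, encoding the factor that switches on melanin genes in melanophores, levels were 2.13, 2.85 and 2.18 CPM at 6.0 months, against 1.10, 1.52 and 1.50 CPM at 1.5 months (log2 change 0.80 ± 0.32, edgeR adjusted p = 0.183). The 2 entries of sox10, a neural crest and glial factor, had log2 changes of -0.58 (edgeR adjusted p = 0.373) and 0.29 (0.387), and mc1r, the melanocortin receptor, 0.04 (0.967). For gpnmb, a relative of pmel that macrophages also express, levels were 48.4, 242 and 11.6 CPM at 6.0 months, against 4.88, 7.51 and 9.65 CPM at 1.5 months. The groups did not overlap but the 3 old fish differed widely, and the log2 change of 3.77 ± 1.11 did not pass in edgeR (adjusted p = 0.105), while DESeq2 called it for the change and the slope.

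**Figure D5:**
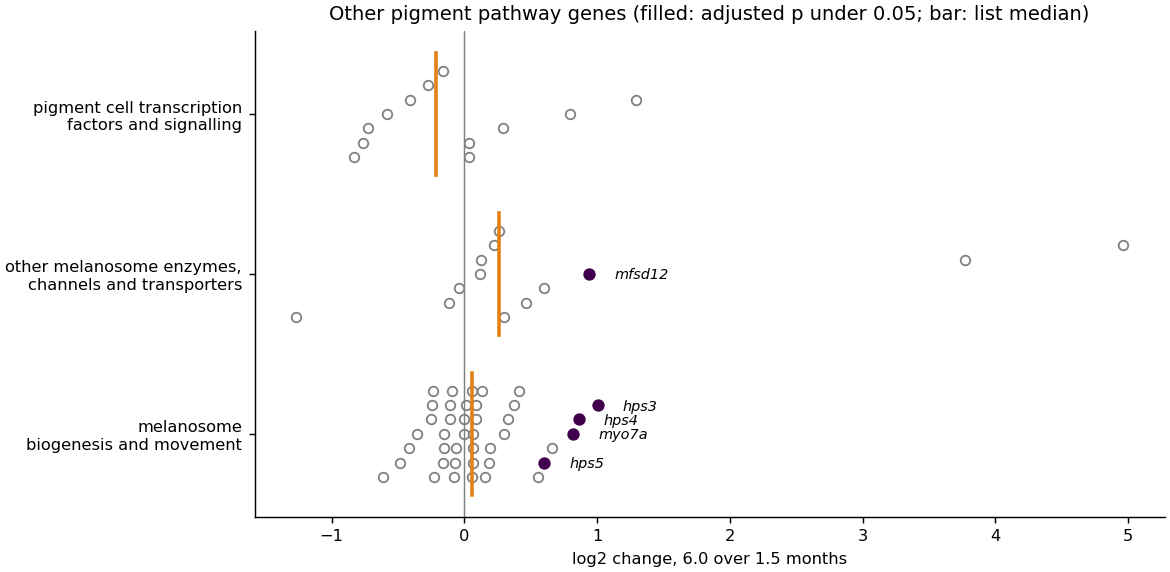
Log2 change at 6.0 over 1.5 months of the 66 tested entries of the 3 pigment path lists, with 1 point per entry, filled where the edgeR adjusted p was under 0.05, and a bar at each list's median. The 5 filled points (hps3, hps4, hps5, myo7a and mfsd12) all lie on the positive side, and the list medians are -0.21 for transcription factors and signalling, 0.26 for enzymes and transporters and 0.06 for biogenesis and movement.

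Genes outside the members were ranked by how like tyrp1b their log2 CPM was over the 12 libraries. The ranking covered 13504 named genes with a mean of at least 1 CPM. Of the members, which were left out of it, oca2 had an r of 0.953 with tyrp1b. The 8 nearest genes were fabp3 (r = 0.958), ptp4a1 (0.955), stmn1b (0.953), slc39a10 (0.948), dynll2b (0.947), pafah1b3 (0.946), bub1 (0.938) and tk1 (0.938). Of these, stmn1b, a regulator of microtubules, averaged 11.5 CPM at 6.0 months and 32.2 CPM at 1.5 months (log2 change -1.48, edgeR adjusted p = 0.0183), and bub1, a mitotic checkpoint kinase, 5.56 CPM and 11.5 CPM (-1.05, 0.044). The other 6 did not pass. Over all genes 1.02% were called lower, but these 8 were picked for their likeness to tyrp1b in the same libraries. Lower levels at 6.0 months were thus favoured by the choice, and the 2 calls are a description. The genes most like the mean of the members were adh5 (r = 0.986), prdx2 (0.982), tmem167a (0.980), tm6sf2b (0.978), dbndd1 (0.976), fbln2 (0.973), eif4a1b (0.970) and tlcd4b (0.969), and none of these 8 passed between 6.0 and 1.5 months. None of the 8 nearest to tyrp1b was among the 8 nearest to the mean of the members.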

How the data were processed

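RNA-seq counts of 12 libraries (retina with RPE, 3 male killifish per age) were used as deposited: whole-number read counts per gene, not normalized by the authors. Aligner, counter, annotation and build are not given in the sources used here, so no coordinates are printed. Of the counts from 1 to 20, 73.16% were even, as when both mates are counted, so counting error is larger than totals imply. The authors' normalized table holds signal values, each equal within 0.001 to the count plus 1 over a size factor for 100% of 23678 shared genes, and served as a check. The NfurGRZ-RIMD1 RefSeq table gave symbols to 5257 of 14589 entries listed by locus number. The file headers name the youngest age in weeks and the labels in months. No library was a copy of another (lowest chi-square per gene 14.48). Whether the fish shared tanks or clutches is not given.

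Counts were analysed with edgeR 4.0.16 in R 4.3.3: filterByExpr (minimum count 10, minimum total 15; 99.98% of counts kept), TMM, robust quasi-likelihood F-tests on all 12 libraries by age (biological coefficient of variation 0.306, 8 residual degrees of freedom, median prior 3.84), and a separate fit for the slope. Adjusted p are Benjamini-Hochberg over 20717 genes, threshold 0.05. CPM use TMM-scaled totals, and log2 CPM a prior count of 2. Correlations used 100000 permutations. DESeq2 1.42.0, other scalings, no filter, a replicate block and single libraries left out were alternatives, and the RPE marker term was added after seeing the data. The fits were tested on simulated data.

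The members and lists were chosen with earlier results of these data known. Genes named were all members, path genes called in the change or slope, mitfa, sox10, kita, mc1r, tyrp1a and gpnmb, and the 8 genes most like tyrp1b and most like the members' mean. The genes slc7a11, tfec, otx2b, ap3b1, ap3s1 and bace2 and single marker genes were named after their values were seen.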

Additional observations from a re-analysis of the deposited data

How the results depend on the processing

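Between 6.0 and 1.5 months, where 1 member was called, 0 were called with no filter on low counts (tyrp1b adjusted p = 0.0537 in edgeR) and 0 without the 3 libraries high in lens markers, which leaves 2 fish at 1.5, 4.5 and 6.0 months. DESeq2 called 2 (tyrp1b and oca2), the RPE marker term gave 3, and leaving out 1 library gave 0 to 1. For the slope, where 1 was called, DESeq2 gave 2, the RPE term 2, no lens-rich library 0, and 1 library left out 0 to 2. For any difference among the ages, where 1 was called, no filter gave 0, DESeq2 2, the RPE term 4, no lens-rich library 0, no Resub library 0, and 1 library left out 0 to 1. For 4.5 over 3.0 months the RPE term gave 2 in place of 0, tyr (edgeR adjusted p = 0.0433) and tyrp1b (0.0489), both close to the threshold. Of all 20717 genes, 850 were called in that step with the term and 66 without it. Of the pigment path entries, 5 were called between 6.0 and 1.5 months, against 4 with RLE size factors and 4 with no filter (both without myo7a), 8 in DESeq2, 0 without the lens-rich libraries and 0 to 6 with 1 library left out. Library totals alone added ap3b1 and tfec to the 5, and the RPE term added ap3s1 and bace2. Without the Resub libraries otx2b was called and myo7a was not. For the slope 1 was called, against 2 on library totals alone, 8 in DESeq2, 2 with the RPE term, 0 without the lens-rich libraries, 0 with the replicate block and 0 to 5 with 1 library left out. Over all genes, 575 were called between 6.0 and 1.5 months, 1017 on library totals and 1064 with the RPE term. DESeq2 called 1068 higher and 816 lower among the 20717 genes. Without the lens-rich libraries 0 were called, and with 1 library left out 8 to 1184. Estimates that changed sign were tyrp1b at 6.0 over 4.5 months (0.094 without the lens-rich libraries, -0.71 to 0.31 with 1 library left out), pmela (0.03) and slc24a5 (0.089, slope 0.005) at 6.0 over 1.5 months with the RPE term, pmela (0.34 for -0.30), pmelb (0.12 for -0.53) and slc24a5 (0.17 for -0.47) at 3.0 over 1.5 months and dct (-0.04 for 0.03) and gpr143 (-0.04 for 0.02) at 6.0 over 4.5 months with that term, and the share of pmela on rpe65 alone (0.046). With 1 library left out, the log2 difference of the share was -0.24 to 0.16 for pmela and -0.10 to 0.15 for slc24a5. The cause of these changes was not tested. Plain library totals moved the median of all genes by 0.17. With the replicate number as a block, tyrp1b changed by -3.68 (edgeR adjusted p = 0.0118) and the members' counts for this change, the slope and all ages at once stayed at 1. Deviations of same-numbered libraries correlated at -0.32 to 0.30, and those of other-numbered libraries at -0.40 to 0.47. Of the 12 libraries, 6 were closest to their own number. Whether the numbers pair the fish is not given, and so few libraries cannot decide it.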

Other observations

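Among the pigment path genes that did not pass in edgeR, tfec, a transcription factor related to Mitf, was at 2.37, 4.02 and 2.10 CPM at 6.0 months, against 1.27, 1.07 and 1.12 CPM at 1.5 months (log2 change 1.29 ± 0.35, edgeR adjusted p = 0.0714). The homeobox factor gene otx2b, which acts in RPE and photoreceptors, was at 31.5, 24.5 and 32.6 CPM at 6.0 months, against 45.5, 51.7 and 53.0 CPM at 1.5 months (-0.76 ± 0.20, edgeR adjusted p = 0.0621). DESeq2 called both. The cystine transporter gene slc7a11 was at 53.2 CPM in 4.5 months replicate 1 and 14.4 CPM in 6.0 months replicate 1, and at or below 0.268 CPM in the other 10 libraries. These are the libraries with the highest summed lens markers, at 1324 and 6414 CPM in the same order. The library of 1.5 months replicate 2, with lens markers at 442 CPM, was among the other 10. The part of lens tissue in the level of slc7a11 was not tested.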
